A study of Homo sapiens with 12 samples.

Results

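The genes described here are 42 interferon-stimulated and interferon-regulatory genes, taken from a fixed list of names and matched to the Ensembl identifiers of the count files. The list was chosen with earlier results of these data known. All 42 genes were found among 57773, DDX58 under its newer symbol RIGI. A filter on low counts left 39 of them measured. All 4 groups are T47D, an established line of luminal, hormone receptor-positive breast cancer, with an inducible short hairpin RNA whose target is PSMD2. That gene encodes part of the 19S cap of the proteasome. The hairpin was left uninduced in control cells. In the Lo19S state it had been switched on with doxycycline at 0.2 µg/ml for 3 days, and the drug was then withdrawn for 24 h. Each state received DMSO, the solvent, or bortezomib, an inhibitor of the proteasome, at 20 nM for 16 h, and 3 libraries were made per group. Only Lo19S cells had met doxycycline, and effects of that drug and of the hairpin cannot be told apart. Whether the 3 libraries of each group are separate cultures is not given, and p-values measure only their spread, which may be technical.

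Interferons are secreted signals of infection. They bind receptors at the cell surface, the kinases JAK1 and TYK2 phosphorylate STAT proteins, and a complex that contains STAT2 and IRF9 binds a DNA element in the promoters of the genes described here. Their products sense viral RNA, block viral entry, translation or release, or feed back on the pathway. Several are also transcribed at a basal level, or switched on directly by IRF1 and related factors, without interferon.

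Library totals ran from 7376597 to 15003480 counts. Levels are given as CPM, counts per 1000000 counts of a library, with library sizes scaled by trimmed-mean-of-M-values (TMM) factors. Values are listed in the order of replicates 1, 2 and 3. They are not divided by gene length and are not compared between genes. Counts of the 39 measured genes ran from 0 to 2002 per library, and 16 of them had a mean count under 50. PSMD2 was lower in the Lo19S state by 1.13 on the log2 scale with DMSO and by 1.48 with bortezomib. The 8 luminal breast markers were all measured and their summed level was 6278 to 6379 CPM in control cells and 5494 to 5570 in Lo19S cells with DMSO, and 2879 to 2965 and 2846 to 2991 with bortezomib. Of 8 leukocyte markers CD3E, LILRA4 and NKG7 were at 0 in every library, and the sum was 0.855 to 2.33 CPM over all libraries. The 3 endothelial markers found reached at most 0.372 CPM. The 5 fibroblast markers summed to 24.8 to 30.1 CPM in control cells and 29.2 to 29.5 in Lo19S cells with DMSO, and 61.9 to 68.2 and 40.3 to 43.2 with bortezomib. COL1A1 held nearly all of that, while COL1A2, COL3A1, DCN and PDGFRB had at most 12 counts in a group. The part of these markers in the results was not tested. Here as in all bulk RNA, fewer cells expressing a gene and less RNA per cell cannot be told apart.

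Promoters are shown first, since one DNA element is shared by many of the genes. RefSeq windows on GRCh38.p14, which run from 250 bases before to 50 bases after an annotated start, were matched by symbol for 34 of the 42 genes. The core of the interferon-stimulated response element, bound by the complex that contains STAT2 and IRF9, was searched as GAAANNGAAA on both strands, each start counted even where matches overlap. It occurred for 24 of the 34 genes (70.6%), against 4.38% of 27305 genes with a window. By window of equal length it was in 63.6% of 44 windows of these genes and in 3.57% of all 35116. The core of the gamma-activated site, bound by STAT dimers, was searched as TTCNNNGAA, which reads the same on both strands. It was present for 11 of the 34 (32.4%), against 9.38% of all genes.

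Windows of 6 genes are printed for their contrast in response, with response element cores on either strand in capitals. GBP3 (chr1:89022817-89023116, minus strand) and GBP1 (chr1:89065159-89065458, minus strand) are neighbours that bortezomib moved in opposite directions in control cells, and so are IFIT1 (chr10:89392373-89392672, plus strand) and IFIT5 (chr10:89414318-89414617, plus strand). ISG20 (chr15:88638766-88639065, plus strand) was among the genes that bortezomib raised most, and IFITM1 (chr11:313790-314089, plus strand) among those it lowered most.
GBP3: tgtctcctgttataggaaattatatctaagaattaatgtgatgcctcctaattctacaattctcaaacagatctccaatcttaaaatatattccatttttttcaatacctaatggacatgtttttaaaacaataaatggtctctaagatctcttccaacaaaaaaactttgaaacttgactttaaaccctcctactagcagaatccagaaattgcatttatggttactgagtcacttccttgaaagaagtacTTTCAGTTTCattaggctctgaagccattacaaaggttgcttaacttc
GBP1: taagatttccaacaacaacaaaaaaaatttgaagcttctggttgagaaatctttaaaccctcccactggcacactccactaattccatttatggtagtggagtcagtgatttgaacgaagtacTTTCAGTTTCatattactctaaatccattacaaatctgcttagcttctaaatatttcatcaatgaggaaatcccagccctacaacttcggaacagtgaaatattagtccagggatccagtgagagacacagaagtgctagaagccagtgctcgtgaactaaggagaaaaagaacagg
IFIT1: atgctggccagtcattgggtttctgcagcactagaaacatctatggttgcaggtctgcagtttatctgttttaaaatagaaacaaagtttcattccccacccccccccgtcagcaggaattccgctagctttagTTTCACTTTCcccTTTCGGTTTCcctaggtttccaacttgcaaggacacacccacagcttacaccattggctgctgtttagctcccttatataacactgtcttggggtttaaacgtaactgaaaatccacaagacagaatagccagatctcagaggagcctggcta
IFIT5: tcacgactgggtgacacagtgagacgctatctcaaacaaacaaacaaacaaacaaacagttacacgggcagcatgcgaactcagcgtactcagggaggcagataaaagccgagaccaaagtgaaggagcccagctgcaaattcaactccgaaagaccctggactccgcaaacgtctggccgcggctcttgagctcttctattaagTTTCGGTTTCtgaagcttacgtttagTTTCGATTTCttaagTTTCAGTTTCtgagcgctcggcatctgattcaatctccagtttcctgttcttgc
ISG20: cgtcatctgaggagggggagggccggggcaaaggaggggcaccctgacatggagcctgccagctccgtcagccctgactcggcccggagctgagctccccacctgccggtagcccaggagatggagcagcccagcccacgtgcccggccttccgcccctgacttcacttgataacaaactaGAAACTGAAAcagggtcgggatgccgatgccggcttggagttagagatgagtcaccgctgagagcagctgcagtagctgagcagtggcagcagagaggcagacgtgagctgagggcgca
IFITM1: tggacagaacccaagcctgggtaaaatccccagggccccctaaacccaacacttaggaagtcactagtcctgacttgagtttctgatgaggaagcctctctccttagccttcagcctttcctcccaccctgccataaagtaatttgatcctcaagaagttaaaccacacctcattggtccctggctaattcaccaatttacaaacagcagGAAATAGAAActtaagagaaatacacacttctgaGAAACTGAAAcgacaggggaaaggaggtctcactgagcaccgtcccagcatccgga
All 6 of these picked windows hold the core. Among genes with a window, the core was found for 10 of the 14 that bortezomib raised in control cells and for 12 of the 13 that it lowered. No core was found for IFI35, IRF1, SAMD9L and STAT2, which rose in control cells, or for HERC6, which fell. These are descriptions of letters in a window, not of bound sites.

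Bortezomib was compared with DMSO in each state to describe the response to proteasome inhibition. The interferon-stimulated genes moved in both directions, in shares near those of all genes. In control cells 17 of 39 rose and 17 fell, with a median log2 fold change of -0.07, from -3.44 for IFITM1 to 4.82 for GBP3. Over all 14714 genes tested, 39.2% rose and 42.2% fell. In Lo19S cells 18 rose and 16 fell (median -0.14), beside 37.8% and 39.7% of all genes. A gene was called at a Benjamini-Hochberg adjusted p below 0.05 in edgeR's quasi-likelihood test over all genes.

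The sizes of response, regardless of direction, had a higher median than over all genes. The list was chosen with earlier results of these data known, so this is not independent of them. Of the 39 genes 16 had a mean count under 50, and no set of genes matched by level was compared. The median absolute log2 fold change was 1.23 over the 39 in control cells and 0.71 over all genes tested, and in Lo19S cells it was 0.90 and 0.60. At least 2-fold rises were called for 14 of the 39 in control cells, where 14.5% of all genes had one, and at least 2-fold falls for 10, beside 22.1% of all genes. In Lo19S cells these counts were 11 and 5, beside 10.3% and 18.5%. Both comparisons rest on separate libraries, and 38 of 39 genes had the same sign in both, against 90.2% of all genes. There were 16 genes (41.0%) that rose in both states and 13 (33.3%) that fell in both, near the 34.0% and 36.3% of all genes.

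Scaling matters for small changes here. With library totals in place of TMM factors the median of all genes shifted by -0.38 in control cells and by -0.29 in Lo19S cells, and 3717 rose and 8452 fell in control cells (3731 and 7918 in Lo19S cells), against 5761 and 6215 with TMM (5561 and 5847). Of the 39 genes, 15 then rose and 20 fell in control cells, and 16 and 21 in Lo19S cells. DTX3L was the only one whose direction turned with a call under either scaling, in both states.

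**Figure D1:**
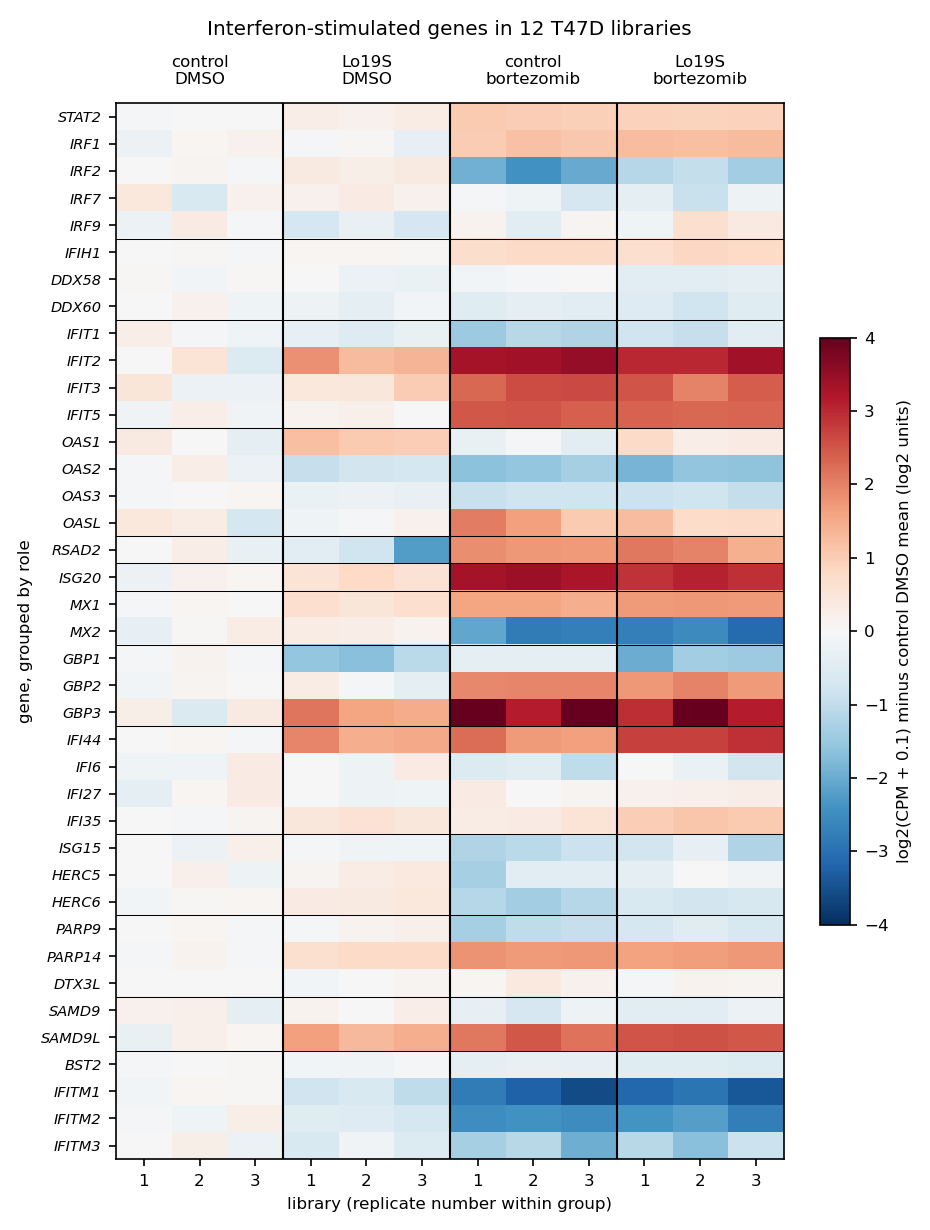
Level of each of the 39 measured genes (rows, grouped by role) in each of the 12 libraries (columns), as log2(CPM + 0.1) minus the mean of the control DMSO libraries. In the bortezomib libraries rows such as IFIT2, ISG20 and GBP3 are red (higher) and rows such as IFITM1, IFITM2 and MX2 are blue (lower).

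Of the transcription factors of the pathway, STAT2 and IRF1 rose and IRF2 fell. STAT2, which acts with IRF9 in the interferon complex, was at 61.0, 64.1 and 63.2 CPM in control cells with DMSO, 75, 70.8 and 76.7 in Lo19S cells with DMSO, 129, 124 and 123 in control cells with bortezomib, and 118, 117 and 119 in Lo19S cells with bortezomib. The bortezomib libraries lay above all DMSO libraries, and STAT2 rose in control cells (log2 fold change 1.0, SE 0.050, adjusted p = 1.22e-23) and in Lo19S cells (log2 fold change 0.67, SE 0.049, adjusted p = 3.15e-17). IRF1, an activator of many of these genes, was at 4.23, 5.31 and 5.67 CPM in control cells with DMSO, 4.78, 5.16 and 3.95 in Lo19S cells with DMSO, 10.4, 11.5 and 10.8 in control cells with bortezomib, and 11.9, 11.7 and 12.1 in Lo19S cells with bortezomib. It rose in control cells (log2 fold change 1.12, SE 0.142, adjusted p = 1.05e-09) and in Lo19S cells (log2 fold change 1.35, SE 0.140, adjusted p = 3.63e-12), with no overlap between DMSO and bortezomib libraries.

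IRF2, a factor that binds the same element as IRF1 and often opposes it, went the other way. Its level was 15.8, 17.2 and 15.1 CPM in control cells with DMSO, 20.4, 18.7 and 20.7 in Lo19S cells with DMSO, 4.15, 2.90 and 3.93 in control cells with bortezomib, and 7.17, 8.19 and 5.99 in Lo19S cells with bortezomib. The 4 groups did not overlap, and IRF2 fell 4.40-fold in control cells (log2 fold change -2.14, SE 0.148, adjusted p = 4.21e-18) and 2.89-fold in Lo19S cells (log2 fold change -1.53, SE 0.120, adjusted p = 5.22e-16).

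IRF7 and IRF9 are the other measured factors. IRF7, which amplifies interferon production, was at 7.78, 3.82 and 6.60 CPM in control cells with DMSO, 6.53, 7.31 and 6.63 in Lo19S cells with DMSO, 5.62, 5.12 and 3.57 in control cells with bortezomib, and 4.54, 3.07 and 5.05 in Lo19S cells with bortezomib. Its control groups overlapped (log2 fold change -0.37, adjusted p = 0.096, but 0.00297 without control DMSO replicate 2, the lowest library of its group, 0.0365 without the filter and 0.00112 with library totals), and it fell in Lo19S cells (log2 fold change -0.63, SE 0.200, adjusted p = 0.0049). IRF9, the DNA-binding part of the STAT complex, had few counts and was at 0.906, 1.40 and 1.02 CPM in control cells with DMSO, 0.637, 0.861 and 0.641 in Lo19S cells with DMSO, 1.22, 0.779 and 1.19 in control cells with bortezomib, and 0.956, 1.76 and 1.44 in Lo19S cells with bortezomib. In control cells it differed by -0.05 (adjusted p = 0.901), and its rise in Lo19S cells (log2 fold change 0.93, SE 0.374, adjusted p = 0.022) was lost without any of 4 libraries, Lo19S DMSO replicates 1 and 3 and Lo19S bortezomib replicates 2 and 3 (adjusted p up to 0.0834), with DESeq2 (0.0698), without the filter (0.0742) and with library totals (0.111).

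Among the sensors of viral RNA, IFIH1 (MDA5) rose in control cells (log2 fold change 0.75, SE 0.089, adjusted p = 1.6e-10) and in Lo19S cells (log2 fold change 0.71, SE 0.087, adjusted p = 4.84e-10), from 14.7 to 15.5 CPM in control cells with DMSO to 24.8 to 25.8 with bortezomib. DDX58, which encodes RIG-I, was at 23.1, 20.9 and 23.3 CPM in control cells with DMSO, 22.0, 19.2 and 18.5 in Lo19S cells with DMSO, 20.8, 21.4 and 22.0 in control cells with bortezomib, and 16.2, 16.2 and 17.2 in Lo19S cells with bortezomib. It differed by -0.07 in control cells (adjusted p = 0.468, and -0.45 and 1.08e-05 with library totals) and fell in Lo19S cells by 0.26 (SE 0.094), a call lost without Lo19S DMSO replicate 1 (adjusted p = 0.126). DDX60, a helicase linked to RNA sensing, fell in control cells by 0.45 (log2 fold change -0.45, SE 0.199, adjusted p = 0.0353). That call was lost without any 1 of 5 libraries, control DMSO replicates 1 and 2 and the 3 control bortezomib libraries (adjusted p up to 0.118), and with DESeq2 (0.124). In Lo19S cells it differed by -0.34 (adjusted p = 0.128, and 0.00519 with library totals).

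The IFIT genes encode RNA-binding proteins that restrain viral translation, and they lie side by side on chromosome 10. Among them IFIT2 rose most in control cells and IFIT5 in Lo19S cells. The level of IFIT2 was 0.982, 1.49 and 0.650 CPM in control cells with DMSO, 3.74, 2.5 and 2.67 in Lo19S cells with DMSO, 10.7, 11.1 and 12.3 in control cells with bortezomib, and 8.72, 8.63 and 11.2 in Lo19S cells with bortezomib. Every bortezomib library was above every DMSO library, with a 10.9-fold rise in control cells (log2 fold change 3.44, SE 0.214, adjusted p = 7.8e-20) and a 3.24-fold rise in Lo19S cells (log2 fold change 1.70, SE 0.174, adjusted p = 2.77e-12). IFIT3, which stabilises IFIT1, was at 1.74, 1.02 and 1.02 CPM in control cells with DMSO, 1.67, 1.72 and 2.57 in Lo19S cells with DMSO, 6.47, 8.02 and 8.22 in control cells with bortezomib, and 7.53, 5.12 and 6.92 in Lo19S cells with bortezomib. IFIT3 rose in control cells (2.54, SE 0.224) and in Lo19S cells (1.77, SE 0.209). IFIT5 was at 8.31, 11.2 and 8.36 CPM in control cells with DMSO, 10.2, 10.5 and 9.19 in Lo19S cells with DMSO, 51.7, 52.6 and 48.5 in control cells with bortezomib, and 47.8, 45.5 and 46.2 in Lo19S cells with bortezomib, a 5.52-fold rise in control cells (log2 fold change 2.46, SE 0.091, adjusted p = 6.87e-29) and a 4.64-fold rise in Lo19S cells (log2 fold change 2.21, SE 0.090, adjusted p = 6.98e-27).

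IFIT1, which binds viral RNA lacking the cap methylation of host RNA, did not follow its neighbours. IFIT1 stood at 5.06, 4.0 and 3.72 CPM in control cells with DMSO, 3.35, 2.93 and 3.42 in Lo19S cells with DMSO, 1.47, 1.89 and 1.79 in control cells with bortezomib, and 2.39, 2.19 and 3.10 in Lo19S cells with bortezomib. It fell in control cells without overlap (log2 fold change -1.32, SE 0.235, adjusted p = 1.91e-06), while the Lo19S groups overlapped (log2 fold change -0.27, SE 0.219, adjusted p = 0.259, and 0.0188 with library totals). IFIT1 and IFIT5, next to each other in the order of genes, thus moved in opposite directions in control cells.

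OAS proteins make the second messenger 2-5A on sensing double-stranded RNA. OAS3 was at 151, 160.1 and 171 CPM in control cells with DMSO, 134, 136 and 130.0 in Lo19S cells with DMSO, 87.0, 91.5 and 91.9 in control cells with bortezomib, and 87.7, 91.7 and 82.8 in Lo19S cells with bortezomib. It fell in control cells (log2 fold change -0.83, SE 0.049, adjusted p = 1.3e-20) and in Lo19S cells (log2 fold change -0.62, SE 0.050, adjusted p = 1.23e-15), and DMSO and bortezomib libraries did not overlap. OAS2 was at 6.57, 8.19 and 5.67 CPM in control cells with DMSO, 3.51, 4.04 and 4.06 in Lo19S cells with DMSO, 2.08, 2.23 and 2.62 in control cells with bortezomib, and 1.79, 2.19 and 2.16 in Lo19S cells with bortezomib, and it fell in control cells (log2 fold change -1.55, SE 0.199, adjusted p = 1.29e-09) and in Lo19S cells (log2 fold change -0.90, SE 0.223, adjusted p = 0.000357).

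OAS1 and OASL differed from these. OAS1 was at 3.10, 2.42 and 1.86 CPM in control cells with DMSO, 5.74, 5.08 and 4.81 in Lo19S cells with DMSO, 1.95, 2.34 and 1.79 in control cells with bortezomib, and 4.18, 2.93 and 3.03 in Lo19S cells with bortezomib. The control groups overlapped (-0.30, adjusted p = 0.286), and with library totals that difference passed the test (-0.68, adjusted p = 0.0143), whereas OAS1 fell in Lo19S cells (log2 fold change -0.65, SE 0.192, adjusted p = 0.0023). OASL, an OAS-like protein that lacks the enzyme activity and enhances RIG-I signalling, lies apart from the other OAS genes. Its level was 2.57, 2.33 and 1.11 CPM in control cells with DMSO, 1.67, 1.81 and 2.14 in Lo19S cells with DMSO, 8.06, 6.12 and 4.05 in control cells with bortezomib, and 4.54, 3.22 and 3.32 in Lo19S cells with bortezomib. OASL rose in control cells (log2 fold change 1.57, SE 0.238, adjusted p = 1.25e-07) and in Lo19S cells (log2 fold change 0.98, SE 0.268, adjusted p = 0.00116), opposite to OAS2 and OAS3.

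RSAD2 encodes viperin, which makes a chain-terminating nucleotide. Viperin RNA was at 0.378, 0.466 and 0.279 CPM in control cells with DMSO, 0.239, 0.172 and 0 in Lo19S cells with DMSO, 1.59, 1.45 and 1.43 in control cells with bortezomib, and 1.91, 1.76 and 1.15 in Lo19S cells with bortezomib. RSAD2 rose in control cells (log2 fold change 1.96, SE 0.442, adjusted p = 9.22e-05) and in Lo19S cells (log2 fold change 3.25, SE 0.528, adjusted p = 3.53e-07) on 13 and 5 counts over the DMSO libraries. Its divergent neighbour CMPK2, a mitochondrial nucleotide kinase, was not measured, with 8, 5, 3 and 0 counts over the 4 groups in the same order. ISG20, an exonuclease that degrades viral RNA, was at 2.27, 2.98 and 2.79 CPM in control cells with DMSO, 3.90, 4.73 and 4.06 in Lo19S cells with DMSO, 27.6, 29.4 and 26.7 in control cells with bortezomib, and 20.5, 23.4 and 20.8 in Lo19S cells with bortezomib. No DMSO library reached a bortezomib library, and ISG20 rose 10.5-fold in control cells (log2 fold change 3.39, SE 0.132, adjusted p = 5.98e-28) and 5.05-fold in Lo19S cells (log2 fold change 2.34, SE 0.125, adjusted p = 3.37e-22).

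The 2 MX genes, neighbours on chromosome 21 that encode dynamin-like antiviral GTPases, moved in opposite directions. MX1 was at 26.4, 29.2 and 27.5 CPM in control cells with DMSO, 44.6, 38.4 and 44.0 in Lo19S cells with DMSO, 82.1, 82.3 and 76.5 in control cells with bortezomib, and 90.3, 91.4 and 89.7 in Lo19S cells with bortezomib. Bortezomib raised it in control cells (log2 fold change 1.54, SE 0.065, adjusted p = 2.03e-26) and in Lo19S cells (log2 fold change 1.09, SE 0.060, adjusted p = 6.58e-22). MX2 was at 1.06, 1.40 and 1.67 CPM in control cells with DMSO, 1.67, 1.64 and 1.5 in Lo19S cells with DMSO, 0.244, 0.111 and 0.119 in control cells with bortezomib, and 0.119, 0.146 and 0.0721 in Lo19S cells with bortezomib. Its bortezomib libraries held 1 or 2 counts each and lay below every DMSO library, with a fitted log2 fold change of -3.02 in control cells (adjusted p = 2.66e-06). In Lo19S cells MX2 went from 54 to 3 counts over the group, a ratio of 15.6 (95% counting interval 5.06 to 78.0).

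Guanylate-binding proteins attack the membranes of intracellular pathogens, and the 3 genes are adjacent on chromosome 1. GBP2 was at 3.32, 3.91 and 3.62 CPM in control cells with DMSO, 4.46, 3.53 and 2.78 in Lo19S cells with DMSO, 14.0, 14.4 and 14.4 in control cells with bortezomib, and 12.3, 14.5 and 12 in Lo19S cells with bortezomib. A rise was called in control cells (log2 fold change 1.98, SE 0.147, adjusted p = 4.71e-17) and in Lo19S cells (log2 fold change 1.80, SE 0.148, adjusted p = 2.68e-15). GBP3 was at 0.0755, 0 and 0.0929 CPM in control cells with DMSO, 0.558, 0.344 and 0.321 in Lo19S cells with DMSO, 2.44, 1.22 and 2.26 in control cells with bortezomib, and 1.08, 2.34 and 1.23 in Lo19S cells with bortezomib. It had 2 counts over the control DMSO libraries and 50 with bortezomib, a ratio of 34 (95% counting interval 8.93 to 288.3), and it rose in Lo19S cells by 1.77 (SE 0.445). GBP1, between them, was at 11.4, 13.4 and 11.4 CPM in control cells with DMSO, 4.06, 3.70 and 5.66 in Lo19S cells with DMSO, 9.28, 9.24 and 9.17 in control cells with bortezomib, and 2.99, 4.54 and 4.33 in Lo19S cells with bortezomib. It fell slightly in control cells (log2 fold change -0.38, SE 0.132, adjusted p = 0.00744), and in Lo19S cells it differed by -0.14 (adjusted p = 0.5, and 0.0365 with library totals).

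IFI44, a cytoplasmic protein of uncertain function, was at 1.51, 1.58 and 1.39 CPM in control cells with DMSO, 6.14, 4.30 and 4.49 in Lo19S cells with DMSO, 7.45, 5.12 and 4.88 in control cells with bortezomib, and 10.5, 10.5 and 11.9 in Lo19S cells with bortezomib. It rose in control cells (log2 fold change 1.94, SE 0.228, adjusted p = 1.2e-10) and in Lo19S cells (log2 fold change 1.14, SE 0.151, adjusted p = 2.95e-09). Its neighbour IFI44L was not measured, with 0, 0, 2 and 4 counts over the groups in the same order. IFI35, which binds NMI, was at 21.4, 20.5 and 23.4 CPM in control cells with DMSO, 29.5, 32.4 and 29.9 in Lo19S cells with DMSO, 26.5, 27.1 and 31.6 in control cells with bortezomib, and 43.0, 47.3 and 45.4 in Lo19S cells with bortezomib. It rose in control cells (log2 fold change 0.38, SE 0.085, adjusted p = 6.89e-05) and in Lo19S cells (log2 fold change 0.56, SE 0.073, adjusted p = 2.12e-09). With library totals the value in control cells was 0.002 (adjusted p = 0.983). IFI6, a mitochondrial and endoplasmic reticulum protein, fell in control cells by 0.66 (log2 fold change -0.66, SE 0.231, adjusted p = 0.0188), a call lost without control bortezomib replicate 3 (adjusted p = 0.0588). In Lo19S cells it differed by -0.39 (adjusted p = 0.118), which passed without control DMSO replicate 3 (0.0318) or Lo19S bortezomib replicate 1 (0.014), with library totals (0.013), without the filter (0.000349) or with only the groups compared (0.0336). IFI27 differed by 0.14 in control cells (adjusted p = 0.374, and 0.0488 without control DMSO replicate 3) and rose in Lo19S cells (log2 fold change 0.33, SE 0.141, adjusted p = 0.0304), which was lost without Lo19S DMSO replicates 2 or 3 or Lo19S bortezomib replicate 3 (up to 0.122), with DESeq2 (0.0791), without the filter (0.106), with library totals (0.784) and with the replicate number as a block (0.0501). XAF1, a pro-apoptotic partner of XIAP, was not measured, with 14, 3, 2 and 6 counts.

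ISG15, HERC5 and HERC6 were called lower in both states, as were 36.3% of all genes. ISG15, a ubiquitin-like modifier, fell in control cells (log2 fold change -1.09, SE 0.224, adjusted p = 2.32e-05) and in Lo19S cells (log2 fold change -0.71, SE 0.213, adjusted p = 0.00252). The latter call was lost without Lo19S bortezomib replicate 3 (adjusted p = 0.103). HERC5, its main ligase in human cells, fell in control cells (log2 fold change -0.71, SE 0.213, adjusted p = 0.00234) and in Lo19S cells (log2 fold change -0.43, SE 0.184, adjusted p = 0.0319), the latter lost without any of Lo19S DMSO replicates 2 and 3 and Lo19S bortezomib replicates 1 and 3 (up to 0.118), and with DESeq2 (0.0974). HERC6, its neighbour on chromosome 4, fell from 13.0 to 14.7 CPM in control cells with DMSO to 5.23 to 6.35 with bortezomib (log2 fold change -1.23, SE 0.129, adjusted p = 4.46e-12), and in Lo19S cells it fell by 1.02 (SE 0.110).

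PARP9, DTX3L and PARP14 lie together on chromosome 3. PARP9 and DTX3L encode partners in an ADP-ribosyltransferase and ubiquitin ligase complex and are transcribed in opposite directions from overlapping promoter windows, so without a stated strand setting reads near their starts are uncertain. PARP9 was at 21.8, 23.5 and 21.3 CPM in control cells with DMSO, 21.4, 24.7 and 25.3 in Lo19S cells with DMSO, 8.79, 10.8 and 11.7 in control cells with bortezomib, and 14.0, 15.8 and 14.3 in Lo19S cells with bortezomib. It fell in control cells (log2 fold change -1.09, SE 0.108, adjusted p = 1.08e-12) and in Lo19S cells (log2 fold change -0.70, SE 0.098, adjusted p = 1.32e-08). DTX3L rose by 0.22 in control cells (log2 fold change 0.22, SE 0.082, adjusted p = 0.0135), which turned to -0.16 with library totals and was lost without control bortezomib replicate 2 (adjusted p = 0.199) or without the filter (0.168). In Lo19S cells it differed by 0.06 (adjusted p = 0.52), and was called lower by 0.23 with library totals (0.0105). PARP14 rose from 22.2 to 25.8 CPM to 76.4 to 81.3 CPM in control cells (log2 fold change 1.74, SE 0.067, adjusted p = 5.49e-28), and from 36.8 to 40.1 CPM to 71.4 to 79.0 CPM in Lo19S cells (log2 fold change 0.96, SE 0.062, adjusted p = 4.19e-19).

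SAMD9 and SAMD9L, neighbours on chromosome 7 that encode inhibitors of translation, also parted. SAMD9L was at 0.755, 1.12 and 1.02 CPM in control cells with DMSO, 3.19, 2.5 and 2.78 in Lo19S cells with DMSO, 4.40, 5.79 and 4.64 in control cells with bortezomib, and 5.97, 6.0 and 5.77 in Lo19S cells with bortezomib. SAMD9L rose in control cells (log2 fold change 2.37, SE 0.247, adjusted p = 3.96e-12) and in Lo19S cells (log2 fold change 1.05, SE 0.185, adjusted p = 1.68e-06). SAMD9 fell by 0.44 in control cells (log2 fold change -0.44, SE 0.191, adjusted p = 0.0333), with overlapping groups, and by 0.49 in Lo19S cells (SE 0.181). The call in control cells was lost without control DMSO replicate 1 or 2 or control bortezomib replicate 1 or 2 (adjusted p up to 0.183), with DESeq2 (0.109) and with only the groups compared in the fit (0.0526).

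The 3 IFITM genes and BST2 were called lower in both states, as were 36.3% of all genes. IFITM proteins, which block fusion of virus with cell membranes, are similar in sequence to differing degrees, so their separate counts are uncertain. IFITM1 was at 3.63, 4.19 and 4.09 CPM in control cells with DMSO, 2.23, 2.58 and 1.92 in Lo19S cells with DMSO, 0.489, 0.334 and 0.238 in control cells with bortezomib, and 0.358, 0.439 and 0.289 in Lo19S cells with bortezomib. IFITM2 was at 22.7, 21.4 and 29.0 CPM in control cells with DMSO, 17.4, 16.8 and 14.6 in Lo19S cells with DMSO, 4.28, 4.45 and 4.17 in control cells with bortezomib, and 4.54, 5.12 and 3.46 in Lo19S cells with bortezomib. IFITM3 was at 3.47, 4.10 and 2.97 CPM in control cells with DMSO, 2.23, 3.18 and 2.35 in Lo19S cells with DMSO, 1.34, 1.56 and 0.834 in control cells with bortezomib, and 1.55, 1.02 and 1.88 in Lo19S cells with bortezomib. No bortezomib library reached a DMSO library for any of the 3. IFITM1 fell 10.9-fold in control cells (log2 fold change -3.44, SE 0.348, adjusted p = 1.55e-12) and 6.38-fold in Lo19S cells (SE 0.382). IFITM2 fell by 2.49 (SE 0.142) and by 1.97 (SE 0.15) on the log2 scale, and IFITM3 by 1.48 (SE 0.277) and 0.71 (SE 0.271). The IFITM3 fall in Lo19S cells was lost without Lo19S DMSO replicate 2 (adjusted p = 0.115) or Lo19S bortezomib replicate 2 (0.0835). BST2, the tetherin that holds budding virus at the cell surface, fell in control cells (log2 fold change -0.33, SE 0.049, adjusted p = 2.79e-08) and in Lo19S cells (log2 fold change -0.41, SE 0.049, adjusted p = 2.83e-10).

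**Figure D2:**
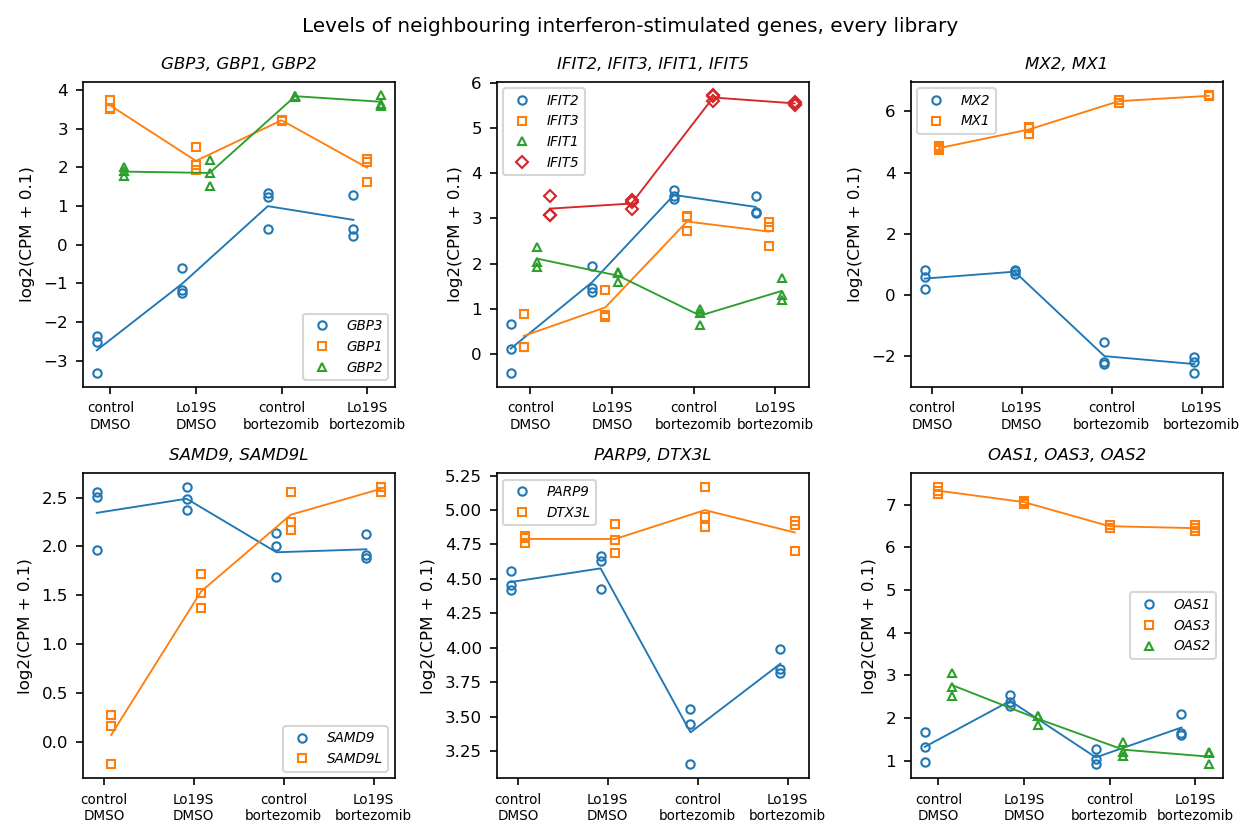
Levels of neighbouring genes, log2(CPM + 0.1), in every library (points) of the 4 groups, with lines joining group means. Only chosen loci are drawn, and several hold neighbours that took different courses. GBP1 is low in both Lo19S groups while GBP2 and GBP3 are high with bortezomib. MX1 climbs as MX2 drops, and IFIT1 drops as IFIT2, IFIT3 and IFIT5 climb. OAS2 and OAS3 drop together. The IFITM genes and the pair of HERC5 and HERC6, which fell together, are not drawn. Heights of different genes are not comparable, since CPM are not per length.

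Neighbouring genes were also counted in pairs. In the order of protein-coding genes of RefSeq, 14 pairs of the 42 genes are adjacent, and both genes were measured in 12. In control cells with bortezomib both genes were called in opposite directions in 6 of these 12 pairs and in the same direction in 5. Of the 6, the pair of PARP9 and DTX3L turns on the scaling named above and that of SAMD9 and SAMD9L on the libraries named above. Pairs can share a gene, so they are not separate cases. Those of GBP3 with GBP1 and of GBP1 with GBP2 both rest on GBP1 (log2 fold change -0.38, not called in Lo19S cells). Among pairs of the same direction IFITM1 stands with IFITM2 and again with IFITM3. In Lo19S cells the counts were 2 and 6. Taken singly, 39.2% of all genes rose and 42.2% fell in control cells, and 37.8% and 39.7% in Lo19S cells. The same shares over all adjacent genes were not computed, so the counts are not read as a trait of these neighbours.

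The state itself was described by setting Lo19S against control cells in DMSO. Of the 39 genes 12 were higher in Lo19S cells and 5 lower (median log2 fold change 0.07, beside 0 over all genes), where 11.7% of all genes were higher and 13.0% lower. Those called higher were thus 30.8% of the list and those called lower 12.8%. Since the list was chosen with earlier results of these data known, its shares are not independent of them. Under DMSO and under bortezomib alike, the comparison rests on 3 libraries a group.

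IFI44 was higher 3.34-fold in Lo19S cells (log2 fold change 1.74, SE 0.224, adjusted p = 2.27e-08), SAMD9L 2.95-fold (log2 fold change 1.56, SE 0.267, adjusted p = 9.12e-06) and IFIT2 2.88-fold (log2 fold change 1.53, SE 0.276, adjusted p = 2.45e-05). By the levels given above, no control DMSO library of these 3 genes reached a Lo19S DMSO library. GBP3 went from 2 to 14 counts over the group, a ratio of 7.25 (95% counting interval 1.67 to 65.8). OAS1 (log2 fold change 1.06, SE 0.195, adjusted p = 3.06e-05), PARP14 (log2 fold change 0.72, SE 0.072, adjusted p = 3.53e-11), MX1 (log2 fold change 0.61, SE 0.069, adjusted p = 8.06e-10) and ISG20 (log2 fold change 0.67, SE 0.188, adjusted p = 0.00549) were also higher. Smaller differences were those of IFI35 (0.49, SE 0.080), HERC6 (0.38, SE 0.097), IRF2 (0.31, SE 0.098) and STAT2 (0.24, SE 0.051).

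The genes lower in Lo19S cells belong to 3 families. GBP1 was 2.74-fold lower (log2 fold change -1.45, SE 0.145, adjusted p = 2.53e-11), at 3.70 to 5.66 CPM against 11.4 to 13.4 CPM in control cells. OAS2 (log2 fold change -0.82, SE 0.165, adjusted p = 0.000134) and OAS3 (log2 fold change -0.27, SE 0.045, adjusted p = 9.63e-06) were lower, opposite to their neighbour OAS1. IFITM1 (log2 fold change -0.80, SE 0.211, adjusted p = 0.00339) and IFITM2 (log2 fold change -0.57, SE 0.101, adjusted p = 2.04e-05) were lower as well, and IFITM3 differed by -0.44 (adjusted p = 0.147).

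Of the 22 genes not called under DMSO, RSAD2 had the lowest value (log2 fold change -1.26, SE 0.706, adjusted p = 0.203) and IFIT3 the highest (log2 fold change 0.58, SE 0.290, adjusted p = 0.147). IRF1, IRF7 and IRF9 differed by -0.10 (adjusted p = 0.709), by 0.15 (adjusted p = 0.61) and by -0.61 (adjusted p = 0.264). IFIT1 differed by -0.42 (adjusted p = 0.103, and 0.0497 without control DMSO replicate 3), IFIT5 by 0.12, GBP2 by 0.02, OASL by -0.14 and MX2 by 0.25. Of 17 calls 13 held in every alternative processing that tested them. The call of GBP3 was lost without control DMSO replicate 1 (adjusted p = 0.0512) or 2 (0.0832) or Lo19S DMSO replicate 1 (0.11), that of ISG20 without control DMSO replicate 1 (0.0589), and that of IRF2 without replicate 1 of either DMSO group (0.0575 for control, 0.0684 for Lo19S) or without Lo19S DMSO replicate 3 (0.0599). DESeq2 left out IRF2 (0.0803) and IFITM1 (0.0547), and BST2 (-0.10, adjusted p = 0.119) passed without control DMSO replicate 1 (0.0469).

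**Figure D3:**
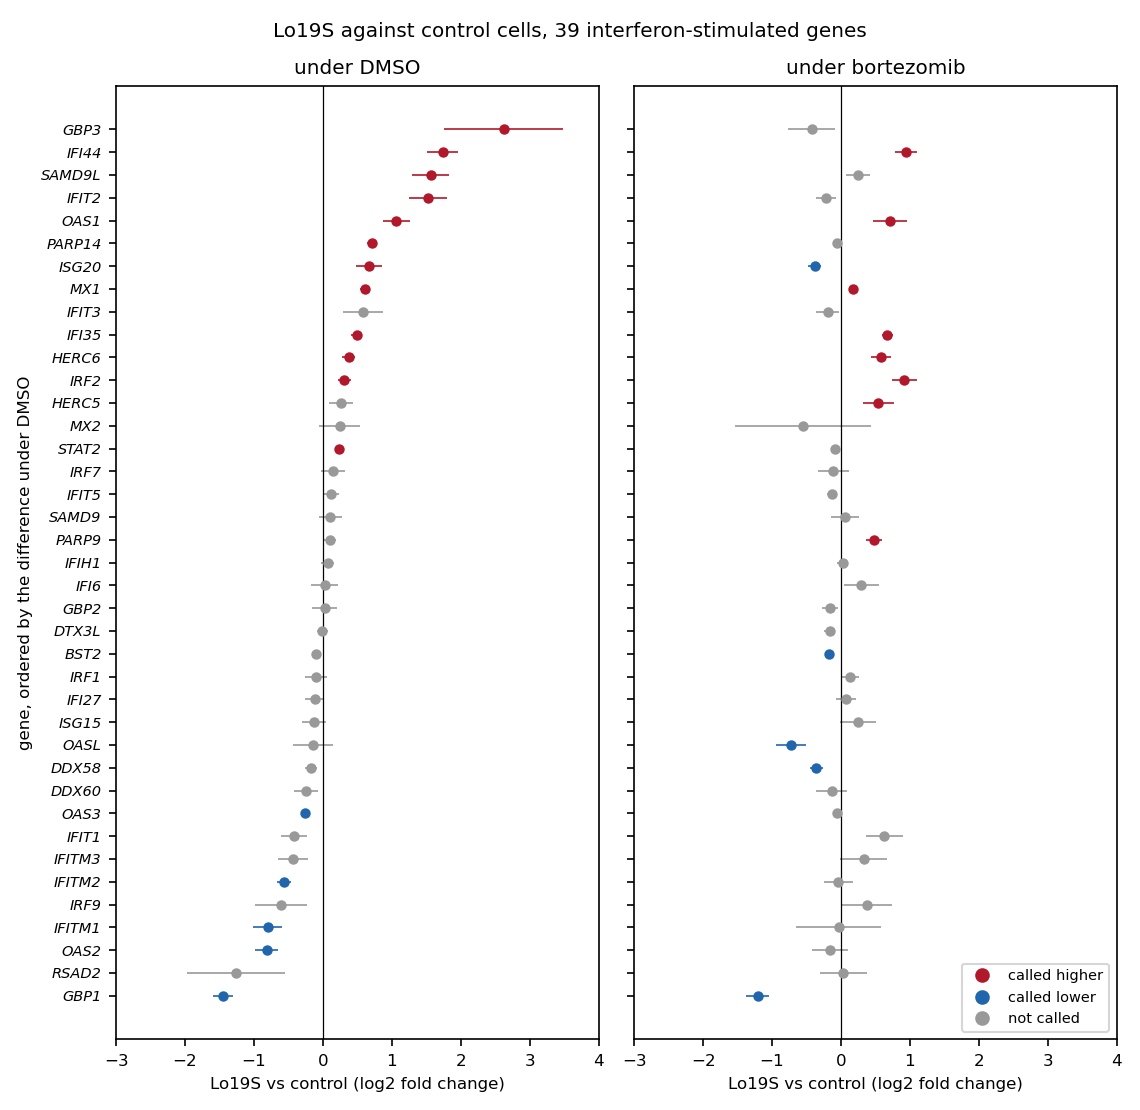
Difference between Lo19S and control cells (log2 fold change, bars are 1 SE) for the 39 genes under DMSO (left) and under bortezomib (right), coloured by call. The large positive values of GBP3, SAMD9L and IFIT2 under DMSO lie at -0.43, 0.25 and -0.22 under bortezomib, while GBP1 stays at -1.45 and -1.21 and IFI44 at 1.74 and 0.94.

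With bortezomib, Lo19S cells were compared with control cells to see which of these differences remained during proteasome inhibition. Of the 39 genes 8 were higher in Lo19S cells and 5 lower, where 22.0% of all genes were higher and 21.2% lower. The median was -0.03. With library totals 4920 of all genes were higher and 1883 lower, against 3230 and 3119, the median of all genes shifted by 0.11, and 9 of the 39 were higher and 4 lower. With DESeq2 5 were higher and 5 lower.

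IFI44 was higher in Lo19S cells with bortezomib too (log2 fold change 0.94, SE 0.156, adjusted p = 2.11e-06), at 10.5 to 11.9 CPM against 4.88 to 7.45 CPM. IRF2 was 1.89-fold higher (log2 fold change 0.92, SE 0.181, adjusted p = 4.14e-05), at 5.99 to 8.19 CPM against 2.90 to 4.15 CPM. IFI35 (log2 fold change 0.67, SE 0.078, adjusted p = 6.54e-10), HERC6 (log2 fold change 0.58, SE 0.145, adjusted p = 0.00093) and PARP9 (log2 fold change 0.48, SE 0.121, adjusted p = 0.00101) were higher, and so were OAS1 (log2 fold change 0.71, SE 0.251, adjusted p = 0.0181), HERC5 (log2 fold change 0.54, SE 0.226, adjusted p = 0.048) and, slightly, MX1 (log2 fold change 0.17, SE 0.057, adjusted p = 0.012). IFIT1 fell short of the threshold (log2 fold change 0.63, SE 0.268, adjusted p = 0.0526), which it passed without control DMSO replicate 3 (0.0485) or Lo19S bortezomib replicate 2 (0.0399), with library totals (0.0203) or with only the groups compared (0.0486).

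GBP1 was lower in Lo19S cells (log2 fold change -1.21, SE 0.171, adjusted p = 8.01e-08), at 2.99 to 4.54 CPM against 9.17 to 9.28 CPM. Of the 5 genes lower under DMSO it was the 1 called lower under both agents (20.0%, beside 43.3% of all genes lower under DMSO). ISG20 was lower (log2 fold change -0.38, SE 0.092, adjusted p = 0.000623), the reverse of its difference under DMSO. OASL (log2 fold change -0.73, SE 0.220, adjusted p = 0.00619), DDX58 (log2 fold change -0.36, SE 0.097, adjusted p = 0.00227) and BST2 (log2 fold change -0.17, SE 0.052, adjusted p = 0.00549) were lower too. Of the 12 genes higher under DMSO, 6 were higher under bortezomib (beside 55.6% of all genes higher under DMSO), 1 was lower and 5 did not pass the test, namely GBP3 (-0.43), SAMD9L (0.25), IFIT2 (-0.22), PARP14 (-0.06) and STAT2 (-0.09). Calls were lost for OAS1 without control bortezomib replicates 1 or 3 or Lo19S bortezomib replicate 1 (adjusted p = 0.0527, 0.0739 and 0.106) or with DESeq2 (0.0594), for OASL without control bortezomib replicate 1 (0.115) or Lo19S bortezomib replicate 3 (0.0628), and for MX1 without control bortezomib replicate 3 (0.0889) or with DESeq2 (0.0617). HERC5 lost it without any of 7 libraries, control DMSO replicate 1, all Lo19S DMSO libraries, control bortezomib replicate 1 and Lo19S bortezomib replicates 2 and 3 (up to 0.319), with DESeq2 (0.121) and without the filter (0.104), BST2 with library totals (0.34), and IFI6 (0.30, adjusted p = 0.379) gained it without Lo19S bortezomib replicate 3 (0.0442).

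The bortezomib responses of both states were compared directly, as the difference of their log2 fold changes, Lo19S minus control. It was called negative for 8 of the 39 genes and positive for 4, where 13.4% of all genes were negative and 14.4% positive. The response was smaller in absolute size in Lo19S cells for 28 of 39 genes (71.8%), beside 67.2% of all genes. With library totals 3331 of all genes were positive and 1257 negative, against 2126 and 1968, and 5 and 7 of the 39. With DESeq2 none of the 39 was positive and 6 were negative.

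All 8 genes with a negative difference were ones that bortezomib raised in control cells. The difference subtracts the control response, so a rise in control cells by itself makes it lower, and both rest on the same control libraries. The share of such genes among all called differences was not computed, so the count is not read as a trait of these genes. IFIT2 rose by 3.44 in control cells and 1.70 in Lo19S cells, a difference of -1.74 (SE 0.310, adjusted p = 1.85e-05). In the levels above, its Lo19S DMSO libraries were higher than the control DMSO libraries, and the bortezomib groups overlapped. SAMD9L had the same course, with a difference of -1.32 (SE 0.324, adjusted p = 0.00149), and so had PARP14 (-0.78, SE 0.093, adjusted p = 4.8e-09). ISG20 (-1.05, SE 0.209, adjusted p = 9.55e-05) was higher before treatment and lower after it. MX1 (-0.44, SE 0.089) and STAT2 (-0.33, SE 0.070) had smaller differences. These 6 held in every alternative processing that tested them. GBP3 (-3.05, adjusted p = 0.0105) rests on 2 counts in control cells with DMSO and was lost without Lo19S DMSO replicate 1 (0.0574). IFI44 (-0.80, adjusted p = 0.0285) was lost without replicate 1 of any group (0.0624 for control DMSO, 0.142 for Lo19S DMSO, 0.147 for control bortezomib and 0.0503 for Lo19S bortezomib), with DESeq2 (0.0596), without the filter (0.057) and with library totals (0.051).

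The 4 positive differences were of genes that bortezomib lowered in control cells. Here too the control libraries are shared, and the share over all genes was not computed, so this count is not read as a trait either. IFIT1 (log2 fold change 1.05, SE 0.328, adjusted p = 0.0128), IRF2 (log2 fold change 0.61, SE 0.207, adjusted p = 0.0233), PARP9 (log2 fold change 0.38, SE 0.149, adjusted p = 0.0484) and OAS3 (log2 fold change 0.21, SE 0.071, adjusted p = 0.0202) fell less in Lo19S cells, or, for IFIT1, did not pass the test there. None of the 4 held throughout. IFIT1 was lost without control DMSO replicate 1 (0.0502) or Lo19S bortezomib replicate 3 (0.104), IRF2 without control bortezomib replicate 2 (0.14) or Lo19S bortezomib replicate 2 (0.0742), and OAS3 without control bortezomib replicate 1 (0.0682) or Lo19S bortezomib replicate 2 (0.068). PARP9 was lost without any of 8 libraries, which are all but control DMSO replicate 3, Lo19S DMSO replicates 2 and 3 and control bortezomib replicate 3 (up to 0.201), and without the filter (0.0685). With DESeq2 the adjusted p was 0.0647 for IFIT1, 0.0548 for IRF2, 0.0612 for OAS3 and 0.122 for PARP9. IFIT3 (-0.77, adjusted p = 0.0807) passed without control DMSO replicate 1 (0.0285), IFIT5 (-0.25, adjusted p = 0.184) without control DMSO replicate 2 (0.0362), and IFITM2 (0.53, adjusted p = 0.0867) without control DMSO replicate 2 (0.0421) or Lo19S bortezomib replicate 3 (0.0354), or with library totals (0.0369).

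**Figure D4:**
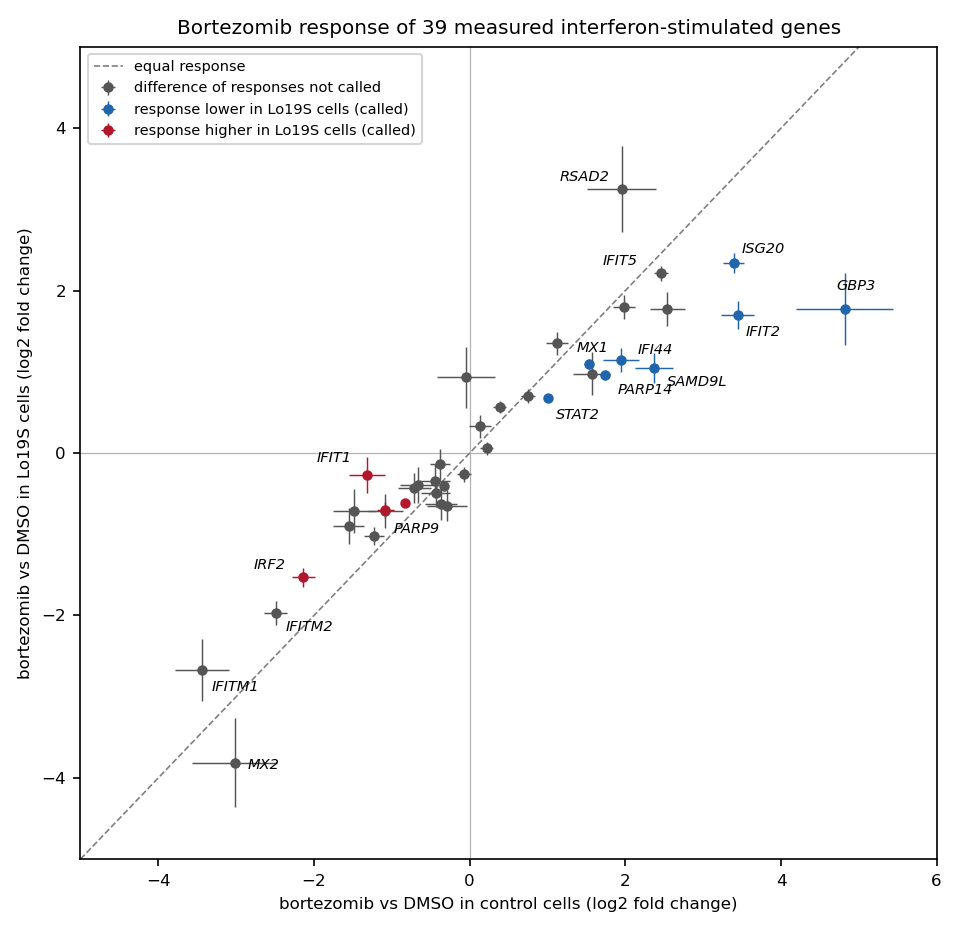
Bortezomib response (log2 fold change, bars are 1 SE) in control cells (x axis) and Lo19S cells (y axis) for the 39 genes, with the dashed line marking equal responses. Genes with a called negative difference, such as IFIT2, SAMD9L, ISG20 and PARP14, lie below the line on the right, and IFITM1, IFITM2 and MX2 lie at the lower left in both states.

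The upstream pathway was read from a list of 42 signalling genes, of which 41 were found and 23 measured. Interferon genes themselves were near the detection limit. Of 15 interferon genes 9 were at 0 in all 12 libraries, which allows up to 3 counts in each, and all 15 together had 3, 3, 12 and 7 counts over control DMSO, Lo19S DMSO, control bortezomib and Lo19S bortezomib libraries. IFNB1 had 1, 0, 1 and 3 counts in that order. IFNL1, a lambda interferon, had 1, 2, 9 and 4, a ratio of 12.2 (95% counting interval 1.69 to 536.1) for bortezomib in control cells. In Lo19S cells the ratio was 2.31 (0.331 to 25.5). Intervals and limits cover counting error only.

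Of the 23 measured signalling genes 11 rose and 8 fell with bortezomib in control cells (47.8% and 34.8%, median 0.18), beside 39.2% and 42.2% of all genes. In Lo19S cells 13 rose and 9 fell (56.5% and 39.1%, median 0.23), beside 37.8% and 39.7%. IFNAR2, a chain of the type I interferon receptor, fell by 1.72 (SE 0.187) and by 1.75 (SE 0.219), while IFNAR1, its partner, rose by 0.53 and 0.58. IFNGR1, of the interferon gamma receptor, rose by 1.83 and 1.63.

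Feedback and adaptor genes split as well. USP18, which removes ISG15 and restrains the receptor, fell by 1.88 (SE 0.258) and by 1.49 (SE 0.230), whereas the JAK inhibitors SOCS3 (1.94 and 1.38) and SOCS1 (2.26 and 1.07) rose. TICAM1, the adaptor of TLR3, rose by 2.07 and 1.46, and TBK1, the kinase of IRF3, by 1.07 and 1.08, while IRF3 itself fell by 0.59 and 0.39. TLR3 was called lower in Lo19S cells with bortezomib (-0.82) and differed by 0.60 (adjusted p = 0.0843) in control cells, with a difference of -1.41 (adjusted p = 0.0168).

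Between the states 4 of the 23 signalling genes were called under DMSO, 8.7% in each direction beside 11.7% of all genes higher and 13.0% lower, with TBK1 (0.25) and IRF3 (0.24) higher and IFNAR2 (-0.60) and JAK1 (-0.19) lower in Lo19S cells. Without control DMSO replicate 3 the count was 7. Under bortezomib 8 were higher and 2 lower (34.8% and 8.7%, beside 22.0% and 21.2% of all genes), including IRF3 (0.44) and TICAM1 (-0.68). The difference of responses was called for 4 positive and 2 negative genes (17.4% and 8.7%, beside 14.4% and 13.4%).

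A further list of 45 interferon-stimulated genes outside the 42 gave 36 measured genes. It too was chosen with earlier results of these data known. With bortezomib 17 rose and 14 fell in control cells (47.2% and 38.9%, median 0.14), and 17 rose and 13 fell in Lo19S cells (47.2% and 36.1%, median 0.05), shares near those of all genes given above. APOL2 rose by 1.97 and 1.15, whereas TNFSF10, the death ligand TRAIL, changed by -3.32 and -2.76 and LY6E by -2.17 and -2.17. Under DMSO 8 were higher in Lo19S cells and 2 lower (22.2% and 5.56%, beside 11.7% and 13.0% of all genes), among them APOL2 (log2 fold change 1.05, SE 0.081, adjusted p = 6.76e-15) and TRIM5, a capsid-binding restriction factor (log2 fold change 0.89, SE 0.083, adjusted p = 2.62e-12). Under bortezomib 11 were higher and 4 lower (30.6% and 11.1%, beside 22.0% and 21.2%). The difference of responses was positive for 4 and negative for 6 (11.1% and 16.7%, beside 14.4% and 13.4%), among the latter APOL2 (-0.82).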

How the data were processed

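RNA of 12 T47D libraries was measured, 3 in each of 4 groups taken from the sample labels. Per the labels' protocols, the extraction used Trizol and the kit was a stranded TruSeq one for polyA mRNA. What the authors deposited are raw counts, whole numbers for each gene in 1 table per library. The submitters' processing notes name STAR 2.5.4b, featureCounts 1.6.1 and GRCh37. Strand setting and multiply matching reads: not given in the sources used here.

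Symbols were matched for 51996 of 57773 identifiers, and no row lacks a gene. Counts were filtered with filterByExpr by group (14714 genes kept), scaled with TMM factors and fitted with 1 coefficient per group over all 12 libraries in edgeR 4.0.16 (R 4.3.3), using the robust quasi-likelihood test and Benjamini-Hochberg adjustment over all genes tested. In order, the 5 comparisons were between the states with DMSO, between the agents in control cells, between the agents in Lo19S cells, between the states with bortezomib, and between the responses of both states. The standard error (SE) is approximate, obtained by dividing the size of the log2 fold change by the root of F. Count ratios with exact 95% intervals are given for some genes with 1 to 3 counts in a group. There the fitted value depends on the prior count. The test was checked on simulated data in which few genes changed, in the Lo19S DMSO group only, with the same dispersion for every gene. That check does not cover changes as broad as those with bortezomib. Alternatives were library totals, DESeq2 1.42.0, no filter, only the groups compared, a replicate block, and each library left out.

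The genes and lists were chosen with earlier results of these data known. Every gene is accounted for. Values in every library are given for the 4 genes with the largest called change each way in a comparison, for the transcription factors, and for the IFIT, OAS, GBP and IFITM families. Promoter windows come from RefSeq (GRCh38.p14), another build than that of the counts, and were matched by symbol. IKBKE and PECAM1 were not matched and are not used here.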

Additional observations from a re-analysis of the deposited data

Results flagged for a closer look

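The bortezomib response differed between the states for 12 of the 39 measured genes, by the test of the difference itself (edgeR's quasi-likelihood test over all genes, Benjamini-Hochberg adjusted p below 0.05). Written as the log2 response of Lo19S cells minus that of control cells, the difference was -3.05 for GBP3, -1.74 for IFIT2, -1.32 for SAMD9L, -1.055 for ISG20, -0.80 for IFI44, -0.78 for PARP14, -0.44 for MX1 and -0.33 for STAT2, all of them genes that rose in control cells. It was 0.21 for OAS3, 0.38 for PARP9, 0.61 for IRF2 and 1.05 for IFIT1, which fell in control cells. These directions rest on the same control libraries as the difference. Their share over all genes was not computed, so they are not read as a trait of these genes.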

How the results depend on the processing

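Of the calls for the 39 genes, 13 of 17 between the states under DMSO were kept in every alternative that tested them, 29 of 34 for bortezomib in control cells, 28 of 34 for bortezomib in Lo19S cells, 8 of 13 between the states under bortezomib and 6 of 12 for the difference of responses. With DESeq2 5 genes in place of 8 were higher in Lo19S cells under bortezomib, and 0 in place of 4 had a positive difference of responses. With library totals DTX3L was at -0.163 for bortezomib in control cells and at -0.23 in Lo19S cells. Leaving out each library in turn gave 1 to 4 positive differences, with 1 without Lo19S bortezomib replicate 2, and 4 to 7 called signalling genes between the states under DMSO, with 7 without control DMSO replicate 3. Libraries with the same number did not deviate together (18 pairs, correlations from -0.072 to 0.026), and 3 of 12 correlated best with their own number. With the replicate number as a block, 17 in place of 18 genes rose in Lo19S cells (IFI27 was lost, adjusted p = 0.0501) and the other counts of the 39 were as without it. Over all genes the block left 3445, 11922, 11349, 6196 and 3889 calls for the 5 comparisons in the order of processing. Depth limits the 16 genes with a mean count under 50, and 3 of the 42 could not be tested.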
